A study of Sus scrofa with 50 samples.

Results

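The genes described here are 9 members of the activin and nodal pathway, and they were measured in single porcine embryos. They are the inhibitor FST, the ligand genes INHBA, INHBB and NODAL, the receptor genes ACVR1B, ACVR2A and ACVR2B, and the signal transducers SMAD2 and SMAD3. They were chosen by name and matched by gene symbol to 9 of the 30321 gene identifiers in the tables, and 8 of the 9 reached the level needed for a test in at least 1 comparison. The choice was made with values of the same embryos known, so the levels, differences and calls of the members are given as a description, without a p-value for any member. No threshold on a value set the membership. The study compared embryos that developed in gilts with embryos produced by in vitro maturation, fertilization and culture, each as whole single embryos amplified with Smart-seq2, a method that copies polyadenylated RNA into full-length cDNA. In vivo embryos were 5 4-cell embryos flushed on day 2 after insemination, 10 morulae flushed on day 4 and 10 hatched blastocysts flushed on day 6. In vitro embryos were 5 4-cell embryos, 10 morulae and 10 hatched blastocysts from cultured cumulus-oocyte complexes of abattoir ovaries. They were collected at set hours after fertilization, the hatched blastocysts later than those flushed in vivo, so that source and age cannot be told apart at that stage. The in vivo dams were crossbred gilts given altrenogest and gonadotropins, and the same Duroc boar sired the embryos of both sources, with frozen sperm in vitro. The gilt or in vitro experiment of each embryo is not given in the labels, so embryos of a group may be siblings, and errors over embryos measure only the spread between these embryos.

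Activin is a dimer of inhibin beta subunits, encoded by INHBA and INHBB, and NODAL is a related ligand of the transforming growth factor beta family. Both bind a type II receptor, ACVR2A or ACVR2B, which activates the type I receptor ACVR1B, and the receptor then phosphorylates SMAD2 and SMAD3, which enter the nucleus with SMAD4. FST encodes follistatin, a secreted protein that binds activin and keeps it from its receptors. In mouse embryos nodal signaling acts on the epiblast and on the patterning of the embryo, and activin and follistatin have been used in oocyte and embryo culture of several mammals.

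The values were reads per M (CPM) of the library total after scaling by the authors' normalization factor. Gene counts summed to 4.20 ± 1.29 M reads in an embryo (SD, n = 49), with a range from 1.44 to 7.71 M, and 1 read was worth 0.133 to 0.870 CPM. The depth was under 2 M in 3 embryos, which were in vitro D3 and E4 at the hatched stage and F1 of the in vivo morulae. Genes above 0 CPM numbered 6209 in the in vivo 4-cell embryo C1, 8635 to 13520 in the other 4 of its group and 16059 to 17686 in the in vitro 4-cell embryos. The stage labels were checked with maternal oocyte transcripts, of which all 8 listed had a row. Their summed level was 2505 to 12808 CPM in the in vivo 4-cell embryos, 5.96 to 30.2 CPM in the in vivo morulae and 2.03 to 4.93 CPM in the in vivo hatched blastocysts. In vitro the sums were 10896 to 17895 CPM, 50.7 to 1775 CPM and 2.61 to 17.0 CPM. The sex labels of the morulae and hatched blastocysts were set beside the Y-linked EIF1AY only, with both stages pooled. It was over 10 CPM in 8 of 15 embryos labelled female and at or under 10 CPM in 10 of 25 labelled male. The study assigned sex from DDX3Y, EIF1AY and EIF2S3Y, and reports sperm on the zona of the morulae. The cut at 10 CPM was set here, and DDX3Y and EIF2S3Y are not reported, so these counts cannot decide whether a label is wrong. RNA quality differed between the sources before hatching by the study's account, and for that reason the sources were compared only as hatched blastocysts. For the few transcripts detected in the in vivo 4-cell embryos, the study names lower RNA quality, little input and a low cDNA yield as possible reasons. Levels at the earlier stages are set side by side here without a test.

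FST was the member with the widest difference between hatched blastocysts of the 2 sources. The gene lies on chromosome 16 at positions 32806341 to 32811382 of the Sscrofa11.1 assembly, on which all positions are given. In the in vivo 4-cell embryos FST was at 0 CPM in C1, 1.47 in E1, 12.5 in A1, 15.1 in B1 and 16.3 in D1. The in vivo morulae ranged from 5.17 to 36.3 CPM with a median of 12.7. The in vivo hatched blastocysts ranged from 34.2 to 93.3 CPM with a median of 69.0. Morulae and hatched blastocysts in vivo thus overlapped in their extremes, the morulae A3 and H2 lying just above the lowest hatched blastocyst H4. The means were 9.09 ± 7.77 CPM (SD, n = 5), 17.9 ± 11.4 CPM (n = 10) and 68.2 ± 21.1 CPM (n = 10).

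In vitro FST was low at each stage. The 4-cell embryos had 2.39 CPM in E1, 3.33 in A1, 7.99 in D1, 8.23 in C1 and 18.5 in B1. The in vitro morulae ranged from 0 to 25.1 CPM with a median of 3.82, and the highest, F1, stood far above the next at 7.73 CPM. The in vitro hatched blastocysts ranged from 1.65 to 33.9 CPM with a median of 11.4. Every in vivo hatched blastocyst was above every in vitro one, but the gap was narrow, from 33.9 CPM in the in vitro C4 to 34.2 CPM in the in vivo H4. The means were 8.08 ± 6.38 CPM (SD, n = 5), 5.62 ± 7.39 CPM (n = 10) and 13.6 ± 10.9 CPM (n = 10). In the order of the 6 group means, the in vivo hatched blastocysts exceeded the next group, the in vivo morulae, by more than the larger SD of the pair, and none of the lower neighbours did. Each library is a whole embryo, so fewer cells of a type and less RNA per cell cannot be told apart.

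**Figure D1:**
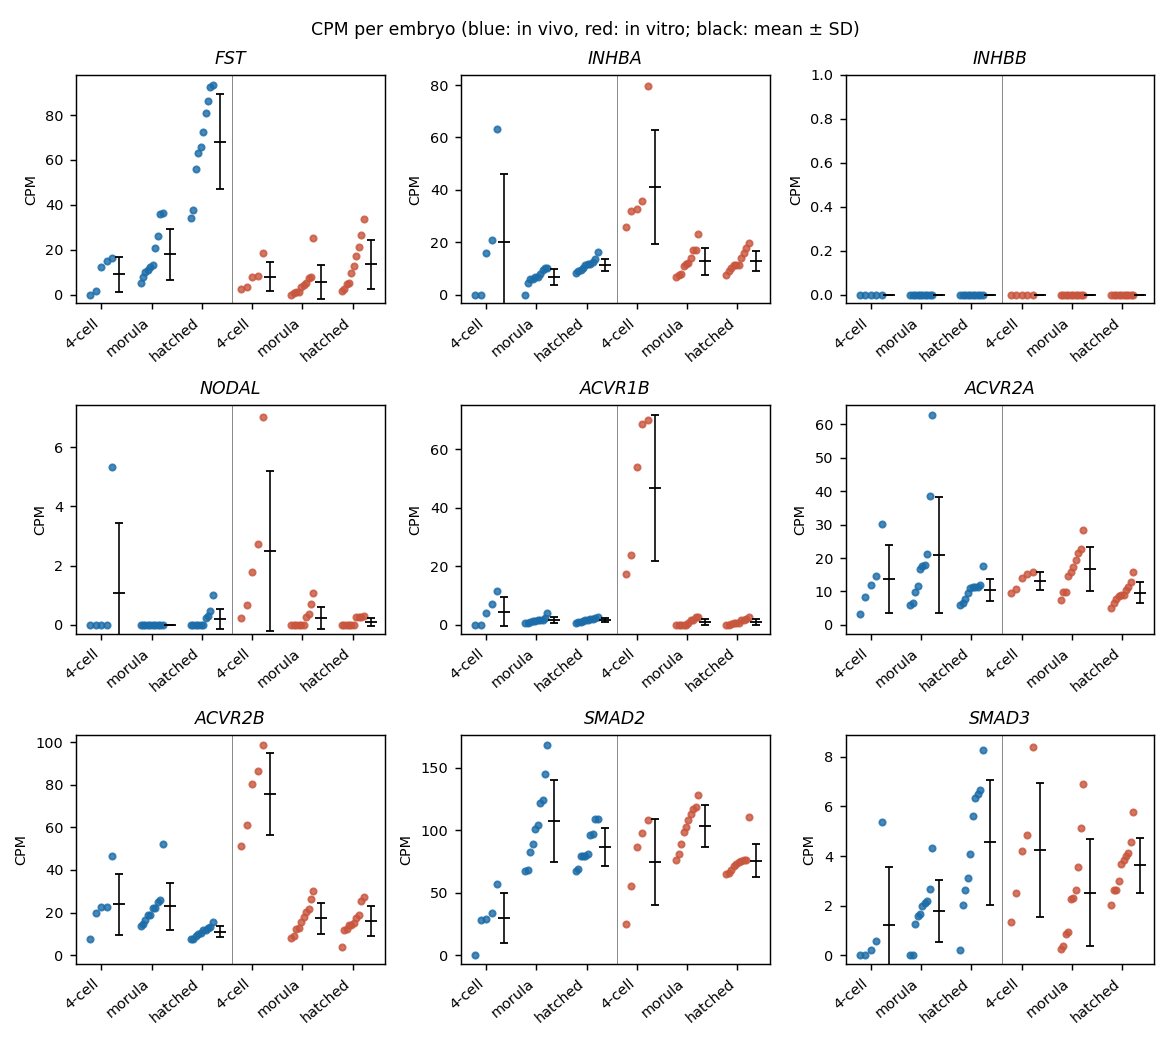
CPM of the 9 genes in each of 50 embryos, by stage on the horizontal axis (blue, in vivo; red, in vitro), with points for embryos in order of level and black marks for the mean ± SD, whose lower part is cut at the axis. The in vivo hatched blastocysts had 34.2 to 93.3 CPM of FST against 1.65 to 33.9 CPM in vitro, ACVR1B and ACVR2B were high in the in vitro 4-cell embryos, and INHBB was at 0 throughout.

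Differences between groups were estimated with limma on log2(CPM + 1), a scale that understates changes of genes at a few CPM, and a gene was called at a Benjamini-Hochberg adjusted p under 0.001 over all genes tested and an absolute log2 fold change over 1. FST was higher in hatched blastocysts in vivo than in vitro by 2.62 ± 0.37 on the log2 scale (SE). It was the only called member of 8 tested in this comparison, in which 2.2% of 17990 genes were called higher and 2.07% lower. It was also the only member whose groups did not overlap, as was the case for 1.97% of the genes. From morula to hatched blastocyst FST was higher by 2.04 ± 0.30 in vivo, the only called member of 8 where 5.81% of 18399 genes were called higher. No member lacked overlap in this step, against 4.63% of all genes. The same step in vitro gave 1.31 ± 0.53 and no call. The difference between these 2 steps was 0.72 ± 0.63 and was not called. The earlier step, 4-cell embryo to morula, gave 1.37 ± 0.67 in vivo and -0.80 ± 0.61 in vitro, neither of them called. These comparisons share groups, so the values are not independent of each other.

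The FST reads behind the difference at the hatched blastocyst stage numbered 135 to 401 per embryo in vivo and 3 to 113 in vitro. The 3 in vitro hatched blastocysts labelled female were the lowest of their group, with 1.65 CPM in A4, 2.61 in D3 and 4.78 in E4, from 3 to 6 reads each. The 7 labelled male ranged from 5.13 to 33.9 CPM with a median of 17.1. In vivo the 4 labelled female ranged from 56.0 to 93.3 CPM and the 6 labelled male from 34.2 to 92.4 CPM, so that these groups overlapped. The split by label in vitro was not tested, and D3 and E4 were among the 3 embryos of lowest depth. The labels differed in part from EIF1AY, a check by a single gene with morulae and hatched blastocysts pooled. The in vivo minus in vitro difference of FST was 1.86 among embryos labelled male and 4.30 among those labelled female, and it was not called in either. The direction held in each of 34 alternatives, with a range from 1.86 to 4.30, and FST was called in 30 of them, including all 20 that left out 1 embryo (2.40 to 2.81).

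Markers of other cells were read beside FST. Of 11 cumulus and granulosa genes, cells that are a known source of follistatin, 9 had a row. Their sum was 5.30 to 87.4 CPM in the in vivo hatched blastocysts and 3.67 to 23.7 CPM in the in vitro ones. CYP19A1, LHCGR, PTX3 and FOXL2 were at 0 in every in vivo hatched blastocyst, and FSHR, PTX3 and FOXL2 in every in vitro one. CYP11A1, a steroidogenic enzyme, made up most of the in vivo sum with a mean of 17.0 CPM against 0.70 in vitro. The other genes of the list together had a lower mean in vivo than in vitro. Among the in vivo embryos H4 had the highest sum (87.4 CPM) and the lowest FST, and the other sums were at most 23.5 CPM. Of 6 oviduct and endometrium genes 4 had a row, and their sums were 0 to 1.15 CPM in vivo and 0 to 4.54 in vitro. The 4 of 5 blood markers with a row summed to 0 to 2.16 CPM in vivo and 0.74 to 28.2 CPM in vitro, and the 5 sperm markers to at most 0.47 and 0.87 CPM. The 6 trophectoderm markers summed to 4063 to 8928 CPM in vivo and 3327 to 8819 CPM in vitro, ranges that overlapped. The 5 inner cell mass markers summed to 26.6 to 84.6 CPM in vivo and 73.9 to 199 CPM in vitro, and the 5 hypoblast markers to 159 to 269 CPM and 170 to 426 CPM. Single genes did not all follow these sums. Mean POU5F1 was 34.5 CPM in vivo and 69.3 in vitro, but NANOG was 13.0 and 4.42 CPM, and SOX17 and FOXA2 were also higher in vivo. The hypoblast sum was already 309 to 644 CPM in the in vivo morulae. These sums are therefore not a measure of the amount of either cell type. The part of any of these in the FST difference was not tested.

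Within each group of hatched blastocysts, FST was related to 4 marker sums, 8 relations in all. FST was among the values that chose the members, so the relations are a description and carry no test. Among the 10 in vitro hatched blastocysts Pearson's r was 0.75 with the inner cell mass sum (rho = 0.77). With the hypoblast sum r was 0.77 (rho = 0.75). Without the 2 embryos farthest from the median sum the values of r were 0.79 and 0.66. Among the 10 in vivo hatched blastocysts r was 0.60 with the inner cell mass sum (rho = 0.30), and it was 0.094 without the 2 farthest embryos, so the value rested on them. The other 5 relations had r from 0.13 to 0.49. The in vitro range of the sums included the 2 embryos of low depth, D3 and E4. For the inner cell mass sum the embryos left out were E3 and C3, the highest, so D3 and E4 stayed in. The in vitro embryos labelled female, D3 and E4 among them, had the lowest FST of their group. Depth and labelled sex were not separated from these relations.

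**Figure D2:**
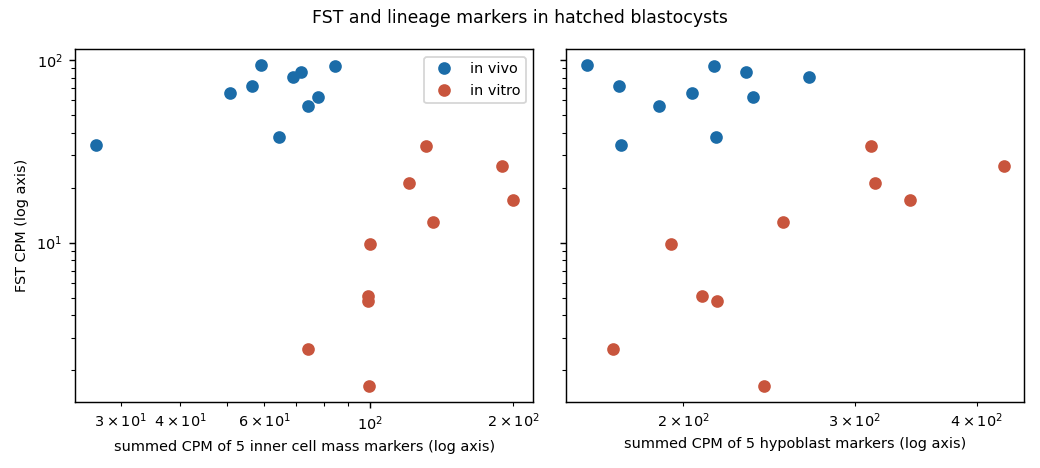
FST CPM against the summed CPM of 5 inner cell mass markers (left) and 5 hypoblast markers (right) in 10 in vivo (blue) and 10 in vitro (red) hatched blastocysts, 1 point per embryo, on log axes. The in vitro embryos spread from 1.65 to 33.9 CPM of FST over sums of 73.9 to 199 CPM and 170 to 426 CPM, and the in vivo embryos stayed within 34.2 to 93.3 CPM of FST.

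INHBA, which encodes the beta A subunit of activin, had its highest group means at the 4-cell stage, with a wide spread. The RefSeq entry for the identifier spans 1750 bases on chromosome 12, positions 53115379 to 53117128, and has the biotype "other" in place of protein coding, and whether it represents the activin subunit gene in full, or at all, was not checked. The values called INHBA are those of this identifier, and the same doubt applies to its call. The in vivo 4-cell embryos had 0 CPM in B1 and C1, 15.8 in D1, 20.7 in E1 and 63.3 in A1. In vitro they had 25.7 CPM in E1, 31.9 in D1, 32.5 in B1, 35.6 in C1 and 79.7 in A1. The in vivo morulae ranged from 0 to 10.1 CPM (median 6.70) and the in vitro morulae from 6.62 to 23.0 CPM (median 11.9). Hatched blastocysts had 8.13 to 16.1 CPM in vivo (median 11.5) and 7.64 to 19.7 CPM in vitro (median 11.3), ranges that overlapped almost wholly. In vitro the 4-cell embryos and morulae did not overlap, and the difference was -1.58 ± 0.32 (SE), a call. Without the in vitro 4-cell embryo A1, which was far above the other 4, it was -1.31 and no longer a call. In vivo the same step gave -0.16 ± 0.87, with a range from 0 to 63.3 CPM in the 5 4-cell embryos. In hatched blastocysts the difference between sources was -0.13 ± 0.18 (in vivo minus in vitro) and was not called.

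The level of FST relative to INHBA was taken as the difference of their log2(CPM + 1) values in each embryo, and only differences between groups are read from it. It holds for activin only if the INHBA entry is the true gene, which was not checked. Its mean was -0.27 ± 2.77 (SD, n = 5) in the in vivo 4-cell embryos, 1.27 ± 1.42 (n = 10) in the morulae and 2.43 ± 0.48 (n = 10) in the hatched blastocysts. In vitro the means were -2.37 ± 1.29, -1.59 ± 1.16 and -0.32 ± 1.26. The hatched blastocysts ranged from 1.36 to 3.09 in vivo and from -2.21 to 1.47 in vitro, so the highest in vitro embryo reached above the lowest in vivo one.

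INHBB, the gene of the beta B subunit (chromosome 15, 30999994 to 31004405), had no read in any of the 50 embryos. Over the 49 embryos with known reads this was 0 of 205.6 M reads, which allows up to 0.0146 reads per M, and 0.398 to 2.61 CPM in single embryos. These limits are 3 reads and cover counting error only. At 0, INHBB was 1 of 5224 identifiers (17.2%), and of 1237 with a gene name, that had no read in any embryo.

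NODAL (chromosome 14, 73350358 to 73357064) was near the limit of detection. It had 114 reads over 49 embryos and was above 0 in 18 embryos. All 5 in vitro 4-cell embryos had NODAL reads, with 0.24 CPM in C1, 0.66 in B1, 1.79 in E1, 2.73 in D1 and 7.01 in A1, from 1 to 40 reads. Among the in vivo 4-cell embryos D1 had 5.32 CPM from 28 reads and the other 4 were at 0. In the in vivo morulae it was at 0 in all 10, where 3 reads would be 0.398 to 1.85 CPM. At most 5 reads were found in any in vitro morula and at most 4 in any hatched blastocyst. Its differences were not called in any of the 6 comparisons, the value farthest from 0 being -1.22 ± 0.33 for the in vitro morulae minus 4-cell embryos, and at such counts they depend on the scale. The entry overlaps EIF4EBP2, and whether the counting used strand is not given in the sources used here.

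ACVR1B, the type I receptor for activin and nodal (chromosome 5, 17314322 to 17350726), was high in the in vitro 4-cell embryos and low elsewhere. In vitro the 4-cell embryos had 17.4 CPM in C1, 23.7 in D1, 54.0 in A1, 68.8 in B1 and 70.0 in E1. The in vitro morulae ranged from 0 to 2.61 CPM (median 0.31), with 5 of 10 at 0, and the in vitro hatched blastocysts from 0 to 2.71 CPM (median 0.57). In vivo the 4-cell embryos had 0 CPM in C1 and E1, 4.07 in A1, 7.03 in D1 and 11.6 in B1. The in vivo morulae ranged from 0.70 to 4.05 CPM (median 1.42) and the hatched blastocysts from 0.66 to 2.82 CPM (median 1.66). The in vitro step to the morula was -4.66 ± 0.46, a call without overlap that was made in each of 23 alternatives (-5.72 to -2.99), and the in vivo step was -0.50 ± 0.58. In hatched blastocysts the difference between sources was 0.50 ± 0.25 (in vivo minus in vitro) and was not called.

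ACVR2B, a type II receptor (chromosome 13, 23237699 to 23276086), was likewise highest in the in vitro 4-cell embryos. They had 51.1 CPM in C1, 61.1 in B1, 80.3 in A1, 86.6 in D1 and 98.7 in E1. The in vivo 4-cell embryos had 7.50 CPM in E1, 19.8 in D1, 22.6 in A1, 22.7 in B1 and 46.8 in C1. Morulae had 13.4 to 52.2 CPM in vivo (median 20.5) and 8.05 to 30.0 CPM in vitro (median 16.8), and hatched blastocysts 7.34 to 15.5 CPM (median 11.04) and 3.77 to 27.5 CPM (median 14.8). The step from 4-cell embryo to morula in vitro was -2.13 ± 0.30, a call without overlap that was made in each of 23 alternatives. In vivo the later step to the hatched blastocyst was -0.94 ± 0.23 and was not called. Leaving out 1 embryo gave values down to -1.01, past the fold threshold, with 0 calls in 20 runs. It was called with DESeq2 (-1.12).

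ACVR2A, the other type II receptor (chromosome 15, 4177333 to 4259056), varied little between groups. Its means were 13.7 ± 10.2 CPM (SD, n = 5), 20.9 ± 17.5 CPM (n = 10) and 10.4 ± 3.32 CPM (n = 10) in vivo, and 13.2 ± 2.79, 16.7 ± 6.56 and 9.65 ± 3.16 CPM in vitro. The in vivo morulae were the most spread, from 5.96 to 62.9 CPM. In the order of the 6 means no neighbouring groups differed by more than the larger SD of the pair. The lowest means were those of the hatched blastocysts of both sources, and the step from the morula was -0.66 ± 0.33 in vivo and -0.69 ± 0.24 in vitro, neither of them called. With values per plain library total, the in vitro step was -1.08 and a call.

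The maternal oocyte markers fell with ACVR1B and ACVR2B from 4-cell embryo to morula in vitro. In vivo the markers fell, and neither receptor was called. All 8 had reads in the in vitro 4-cell embryos and morulae, and their sum went from 10896 to 17895 CPM down to 50.7 to 1775 CPM. INHBA was lower at the same step. In vivo the median of the sum went from 10830 to 13.8 CPM, while the step was 0.047 ± 0.43 for ACVR2B and -0.50 ± 0.58 for ACVR1B, neither of them called. The in vivo 4-cell embryos spread from 7.50 to 46.8 CPM for ACVR2B and from 0 to 11.6 CPM for ACVR1B, so these steps are imprecise. The part of maternal RNA in these differences was not tested.

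SMAD2, a receptor-activated transducer (chromosome 1, 97415360 to 97511388), was detected in every embryo. The in vivo 4-cell embryos had 0.22 CPM in C1, from 1 read, 27.9 in D1, 29.0 in B1, 33.3 in A1 and 56.9 in E1. All 10 in vivo morulae were higher, from 67.7 to 168 CPM (median 103), and the hatched blastocysts had 67.5 to 109 CPM (median 80.4). The step to the morula was 2.5 ± 0.64 and was not called. Without C1, the 4-cell embryo with the fewest genes detected, it was 1.52 and a call. The groups did not overlap, as for 18.5% of 19834 genes in this comparison. In vitro the 4-cell embryos had 24.7 CPM in C1, 55.6 in B1, 86.4 in E1, 97.8 in A1 and 108 in D1, the morulae 76.4 to 128 CPM (median 105) and the hatched blastocysts 65.2 to 111 CPM (median 73.8). Here the 4-cell embryos and morulae overlapped, and the step was 0.62 ± 0.28. The hatched blastocysts of the 2 sources overlapped, with a difference of 0.19 ± 0.12.

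SMAD3, the related transducer (chromosome 1, 164998457 to 165124455), was read at a few CPM throughout. Its means were 1.23 ± 2.33 CPM (SD, n = 5), 1.77 ± 1.26 CPM (n = 10) and 4.55 ± 2.54 CPM (n = 10) in vivo, and 4.26 ± 2.70, 2.52 ± 2.17 and 3.63 ± 1.11 CPM in vitro. Of the in vivo 4-cell embryos A1 had 5.37 CPM and the other 4 had 0 to 0.57 CPM. The step from morula to hatched blastocyst was 0.97 ± 0.38 in vivo and 0.60 ± 0.33 in vitro, and the difference between sources at the hatched blastocyst stage was 0.11 ± 0.30. None of these was called. The entry overlaps AAGAB, whose reads could not be told apart without strand.

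Across the comparisons, the members were called 0 of 8 times from 4-cell embryo to morula in vivo, where 22.8% of 19834 genes were called. From morula to hatched blastocyst in vivo 1 of 8 was called (FST), against 8.95% of 18399 genes. In vitro 3 of 8 were called, all lower, from 4-cell embryo to morula (ACVR1B, ACVR2B and INHBA), against 38.7% of 21780 genes called and 22.7% called lower, and these 3 did not overlap between groups, as was so for 33.4% of the genes. From morula to hatched blastocyst in vitro 0 of 8 were called, against 20.2% of 20716 genes. For the difference between sources in the step from morula to hatched blastocyst 0 of 8 were called, against 4.49% of 21442 genes. The median log2 fold change of the 8 members was 0.29, 0.14, -1.01 and -0.04 in the 4 steps in this order and 0.11 at the hatched blastocyst stage, beside 0.21, 0.01, -0.14, -0.11 and 0.01 over all genes tested. In the 3 comparisons with 0 calls by limma, 1, 3 and 3 of the 8 members had an unadjusted p under 0.05, and edgeR and DESeq2 also called 0. The values of the members entered their choice, so nothing is read from these counts.

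**Figure D3:**
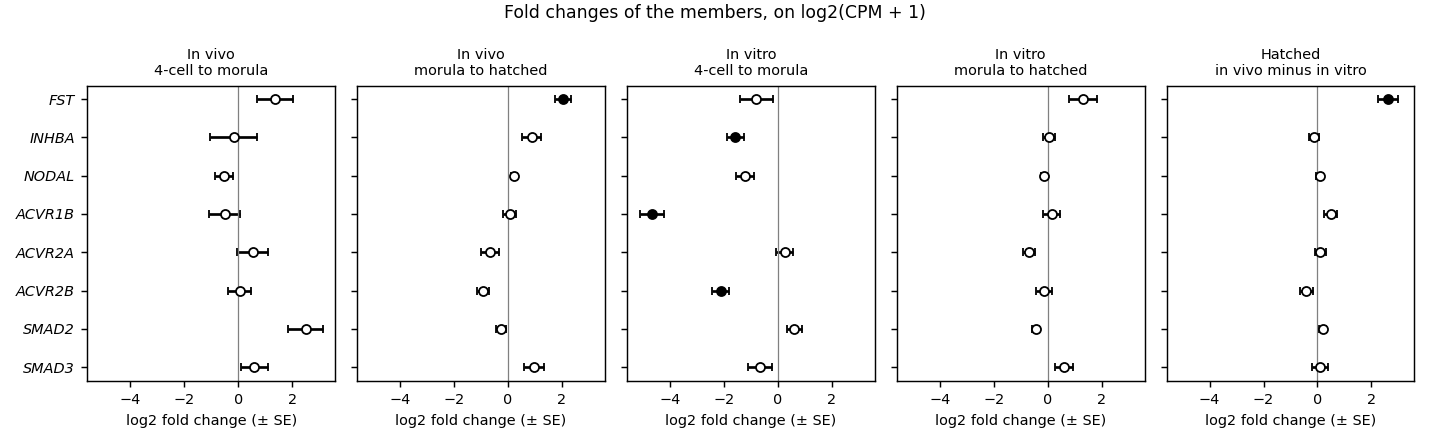
Log2 fold changes on log2(CPM + 1) with their standard errors for the 8 members tested, later stage minus earlier stage in the first 4 panels and in vivo minus in vitro in the last, with filled points for genes called. FST was called at 2.04 in the in vivo step to the hatched blastocyst and at 2.62 between sources, and ACVR1B, ACVR2B and INHBA at -4.66, -2.13 and -1.58 in the in vitro step to the morula.

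The wider pathway was read from a list of 52 other ligands, receptors, inhibitors, SMAD regulators and target genes, of which 50 had a row. Earlier results of these data were known when the list was chosen. Calls and adjusted p-values of its genes, here and below, are therefore a description and not an independent test. CFC1 and LEFTY1 were not matched and are not analysed here. Of 40 list genes tested between 4-cell embryos and morulae in vivo, 9 rose and 4 fell, where 14.9% of all genes were called higher and 7.86% lower. The median of the list was 0.36 against 0.21 over all genes. SMAD4, the common partner of SMAD2 and SMAD3, was listed at 0 in all 5 in vivo 4-cell embryos and was 44.6 ± 17.6 CPM (SD, n = 10) in the morulae (limma, adjusted p = 1.03e-08). TDGF1, the nodal co-receptor known as Cripto, was listed at 0 and then at 6.65 ± 4.90 CPM (limma, adjusted p = 0.000292). For 0 reads in the in vivo 4-cell embryos, 3 reads would be 0.441 to 0.668 CPM in the 4 with known reads. This limit covers counting error only, and the part of RNA quality in these values at 0 was not tested. GATA6, a hypoblast transcription factor, rose from 11.8 to 344 CPM by 6.48 ± 0.68 on the log2 scale. TGFBR1, a type I receptor for transforming growth factor beta, rose by 4.11 ± 0.59 and PMEPA1, a target and inhibitor of the pathway, by 4.04 ± 0.48. TGIF1, a SMAD corepressor, rose by 3.41 ± 0.71 from 8.19 to 36.3 CPM. SMURF2, a ubiquitin ligase for the receptors and SMADs, fell from 383 to 14.0 CPM with a log2 fold change of -4.28 ± 0.58. LHX1, a homeobox factor, was at 0 to 118 CPM in the 4-cell embryos and listed at 0 in all 10 morulae (limma, adjusted p = 3.69e-05). FOXH1, the DNA-binding partner of SMAD2, was at 0 in the 4-cell embryos and at 0.71 to 37.1 CPM in the morulae, and was not called.

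In vitro, 13 of 44 list genes rose and 7 fell between 4-cell embryos and morulae, where 16% of all genes were called higher and 22.7% lower. The list had a median of 0.11 against -0.14 over all genes. GATA6 rose by 5.89 ± 0.48 from 6.0 to 297 CPM and TGIF1 by 5.28 ± 0.38 from 2.11 to 95.5 CPM. PMEPA1 rose by 3.89 ± 0.31, and GDF3, a nodal-related ligand, by 3.18 ± 0.37 from 13.9 to 104 CPM. NANOG, a pluripotency factor read from the longer of its entries, rose by 2.74 ± 0.52 from 0.93 to 12.3 CPM. SMAD4 rose by 2.87 ± 0.29 from 4.45 to 39.1 CPM, TDGF1 by 2.22 ± 0.51 from 0.11 to 5.57 CPM and FOXH1 by 1.78 ± 0.38 from 0.32 to 4.00 CPM. SMURF2 fell from 551 to 25.4 CPM (log2 fold change -4.65 ± 0.36) and LHX1 from 98.1 to 5.07 CPM (-4.58 ± 0.55). FSTL3, a follistatin-like inhibitor, fell from 6.12 to 0.93 CPM (-1.96 ± 0.38). In these comparisons limma gave adjusted p-values of at most 0.000706 to the genes called.

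From morula to hatched blastocyst 5 of 41 list genes rose and 7 fell in vivo, where 5.81% of all genes were called higher and 3.14% lower. The median was -0.14 against 0.01 over all genes. SOX17, an endoderm transcription factor, was listed at 0 in all 10 in vivo morulae, where 3 reads would be 0.398 to 1.85 CPM, and was 9.09 ± 3.47 CPM in the hatched blastocysts (adjusted p = 3.76e-10 by limma). TGFB3, a ligand of the family, rose by 1.81 ± 0.24 and TDGF1 by 1.67 ± 0.34 from 6.65 to 20.8 CPM. PMEPA1, the homeobox gene GSC and GDF3 fell with log2 fold changes of -2.78 ± 0.31, -1.98 ± 0.32 and -1.62 ± 0.24. SMAD4 was 44.6 CPM and then 74.7 CPM without a call, and FOXH1 6.82 and then 2.83 CPM.

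In vitro 3 of 43 list genes rose and 5 fell in this step, where 9.98% of all genes were called higher and 10.2% lower. The median was -0.24 against -0.11 over all genes. TDGF1 rose by 2.82 ± 0.40 from 5.57 to 38.6 CPM, FURIN, a convertase that cleaves ligand precursors, by 2.05 ± 0.37 from 1.13 to 8.43 CPM, and SMAD4 by 1.20 ± 0.19 from 39.1 to 90.1 CPM. OTX2, a homeobox gene, fell from 255 to 36.3 CPM with a log2 fold change of -3.28 ± 0.46. PMEPA1, GDF3, FOXH1 and TGIF1 fell with log2 fold changes of -2.63 ± 0.26, -2.22 ± 0.22, -1.56 ± 0.29 and -1.37 ± 0.20. Of all calls in this step 49.5% were higher, and 30.2% with values per plain library total, which shifted the log2 fold changes gene by gene by a median of -0.24.

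Between hatched blastocysts of the 2 sources 4 of 41 list genes were higher in vivo and 2 lower, where 2.2% and 2.07% of all genes were called. The median was -0.18 against 0.01 over all genes. SOX17 was higher in vivo by 2.10 ± 0.40, with 3.48 to 15.9 CPM in vivo and 0 to 12.8 CPM in vitro. FOXH1 was higher by 1.27 ± 0.22, with means of 2.83 and 0.56 CPM, and FOXA2, an endoderm factor, by 1.18 ± 0.23, with 1.89 and 0.26 CPM. NEDD4L, a ubiquitin ligase for the pathway, was lower in vivo by a log2 fold change of -1.16 ± 0.19, with 10.4 against 25.2 CPM, and ZFYVE9, which presents SMAD2 and SMAD3 to the receptor, by -1.12 ± 0.22, with 0.56 against 2.33 CPM. Limma gave the 6 list genes called adjusted p-values from 2.96e-05 to 0.000459. With a pseudocount of 5 there were 2 calls on the list. Among embryos labelled male limma called 0 of the list (17 at an unadjusted p under 0.05), and among those labelled female 0 (12). SMAD4 was at 74.7 and 90.1 CPM, TDGF1 at 20.8 and 38.6 CPM and FSTL3 at 0.67 and 0.89 CPM, none of them called. INHA was listed at 0 in every embryo, and LEFTY2, a nodal inhibitor, had group means of at most 0.36 CPM.

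The change from morula to hatched blastocyst differed between sources for 4 of 44 list genes, where 2.7% of all genes were called for a higher and 1.79% for a lower change in vivo. NANOG went from 5.07 to 13.0 CPM in vivo and from 12.3 to 4.42 CPM in vitro, a difference of 2.83 ± 0.62 on the log2 scale (limma, adjusted p = 0.000838). NANOG has another, shorter identifier, whose values are not reported here. SOX17 differed by 2.19 ± 0.44 and FOXA2 by 1.38 ± 0.26, both at 0 in the in vivo morulae so that these values depend on the pseudocount, and PPM1A, a SMAD phosphatase, by -1.09 ± 0.24 (adjusted p = 0.00038, 0.000143 and 0.000916 by limma). Of all calls 60.1% were for a higher change in vivo, and 76.5% with values per plain library total. With edgeR on recovered reads 0 of the list were called (18 at an unadjusted p under 0.05), and with DESeq2 3. The morulae of the sources differed in RNA quality by the study's account, and that part of the difference cannot be told apart.

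**Figure D4:**
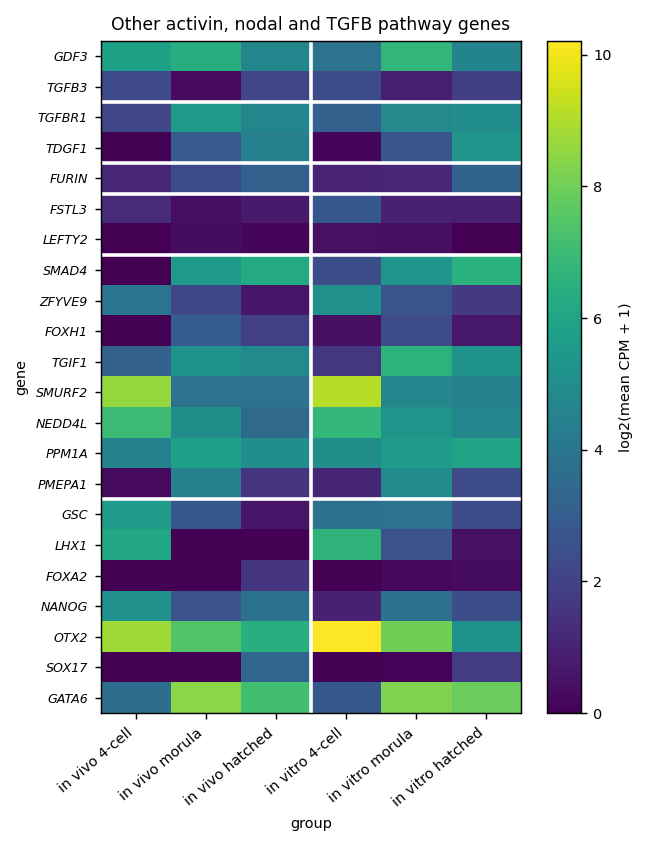
Group means of 22 other pathway genes, those named in the text and over 0.5 CPM in at least 1 embryo, as log2(mean CPM + 1), with 6 groups as columns and white lines between classes, which run from ligands at the top through receptors, convertases, inhibitors and SMAD regulators to targets. Colours are to be compared along a row only, and SMAD4, TDGF1 and GATA6 turn lighter after the 4-cell stage in both sources while SMURF2 and LHX1 turn darker.

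Genes with a pattern like that of a member were sought among 12795 named genes over 0.5 CPM in at least 10 embryos, by Pearson's r of log2(CPM + 1) over the 50 embryos, which share stage and source. For FST the highest were NME3 (r = 0.75), a nucleotide kinase gene, ISYNA1 (0.72), an inositol synthesis enzyme, and COL4A1 (0.72), a basement membrane collagen. COL4A1 averaged 32.7 CPM in the in vivo hatched blastocysts and 4.35 CPM in the in vitro ones, and NME3 35.8 and 18.1 CPM. For INHBA they were OTULIN, MTMR10 and TSPYL1 (0.76 each), all highest in the in vitro 4-cell embryos, where OTULIN averaged 45.2 CPM. For NODAL they were MEGF10 (0.81), SYT5 (0.80) and NLGN1 (0.80), with MEGF10 at 23.0 CPM in the in vitro 4-cell embryos. An r over 0.5 was reached with 5.35% of these genes for FST, 4.27% for INHBA and 12.3% for NODAL.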

How the data were processed

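RNA was measured in 50 single embryos, 1 Smart-seq2 library each. The authors used Trim Galore for trimming, HISAT2 for alignment to the Sscrofa11.1 genome and edgeR for testing. Tool versions, the counting tool and its strand setting are not given in the sources used here. The deposited signal per embryo is CPM of the library total times a normalization factor. The deposited tables also hold the authors' log2 fold changes, likelihood ratio scores and p-values, which were not used.

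Dividing each value by the embryo's smallest step gave whole numbers to within 0.1 reads for 100% of values in 49 embryos. The in vivo 4-cell embryo B1 was left out of count tests, as its step could not be told from rounding. Depth was 1.44 to 7.71 M reads, and 3 embryos under 2 M give coarse values. All 30321 identifiers matched RefSeq (Sscrofa11.1), and 17413 have a name. Where a symbol had another identifier, as for NANOG, the longer entry was used and the shorter is not reported here.

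Every gene that exceeded 0.5 CPM in 1 or more embryos of the compared groups was tested with limma 3.58.1 (trend) in R 4.3.3 on log2(CPM + 1), after a test on simulated data. Reads were tested with edgeR 4.0.16 (quasi-likelihood) and DESeq2 1.42.0 as alternatives, beside pseudocounts of 0.5 and 5, no filter, plain totals, all 6 groups in 1 fit, labelled sexes, leaving out each embryo and a replicate block. Groups were stage by source from the labels. The members, the pathway and marker lists and the naming rule were chosen with earlier results of these data known. Named are all members, up to 8 called pathway genes per comparison by fold change, 7 pathway genes whatever their call (SMAD4, FOXH1, TDGF1, CFC1, LEFTY2, INHA and FSTL3), and the 3 genes most like FST, INHBA and NODAL. Some pathway genes that the rule names are not reported here. EIF1AY, CYP11A1 and the marker genes at 0 were named in addition.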

Additional observations from a re-analysis of the deposited data

Results flagged for a closer look

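In 9 of 47 member and group combinations 1 embryo stood apart from the rest of its group by its gap to the next value, where chance gives about 1 in 20 for normally spread values. CPM near 0 are not spread so, and the count is not read against that share. FST was at 25.1 CPM in the in vitro morula F1, with the next at 7.73 CPM. INHBA was at 79.7 CPM in the in vitro 4-cell embryo A1, with the next at 35.6 CPM. NODAL was at 5.32 CPM in the in vivo 4-cell embryo D1, the other 4 being at 0, and at 1.01 CPM in the in vivo hatched blastocyst H4, from 4 reads. In the in vivo morula B2, ACVR1B was at 4.05 CPM and ACVR2B at 52.2 CPM, with the next at 2.27 and 25.9 CPM. ACVR2A was at 17.5 CPM in the in vivo hatched blastocyst D3, with the next at 12.02 CPM. SMAD2 was at 110.7 CPM in the in vitro hatched blastocyst C3, with the next at 76.5 CPM, and SMAD3 at 5.37 CPM in the in vivo 4-cell embryo A1, with the next at 0.57 CPM.

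For 4 pathway genes the change from morula to hatched blastocyst differed between sources in the test of the difference itself by limma, in vivo minus in vitro. Their list was chosen with earlier results of these data known, so the values are a description. NANOG is again the longer of its entries. The log2 values were 2.83 for NANOG (adjusted p = 0.000838), 2.19 for SOX17 (adjusted p = 0.00038), 1.38 for FOXA2 (adjusted p = 0.000143) and -1.09 for PPM1A (adjusted p = 0.000916).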

How the results depend on the processing

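No called value of a member changed direction under any alternative run. For all genes and for the list only the numbers of calls were compared, not the directions. From 4-cell embryo to morula in vivo 4521 genes were called, 2907 with edgeR and 8055 with all 6 groups in 1 fit. Between hatched blastocysts of the 2 sources 769 genes and 6 list genes were called. These became 423 and 2 with a pseudocount of 5, 304 and 2 with all 6 groups in 1 fit, 194 and 0 among embryos labelled male (limma, 17 list genes at an unadjusted p under 0.05), and 0 and 0 among those labelled female (limma, 3361 and 12 at an unadjusted p under 0.05). For the difference between sources in the step to the hatched blastocyst 963 genes and 4 list genes were called, 504 and 2 with all 6 groups in 1 fit. The list count was 2 with a pseudocount of 0.5, 0 with edgeR (18 at an unadjusted p under 0.05), 3 with DESeq2 and 2 without the 3 embryos under 2 M reads, an alternative chosen after seeing the data. Leaving out 1 embryo was not run for this difference because of the number of fits. Elsewhere it gave 3988 to 5236 calls (10 to 16 on the list) in vivo and 7839 to 8596 (16 to 22) in vitro from 4-cell embryo to morula, 1445 to 1838 (10 to 13) and 3887 to 4315 (8 to 9) from morula to hatched blastocyst, and 665 to 827 (5 to 7) between sources.

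Hatched blastocysts of the 2 sources share 6 codes, but the codes do not pair embryos: 0 pairs had a correlation of deviations over 0.1 (-0.28 to 0.062), and 0 embryos correlated best with their own code. The replicate block gave 0 calls over all genes and 0 on the list (limma, 3477 and 15 at an unadjusted p under 0.05), and the same embryos without the block, an alternative chosen after seeing the data, 113 and 0 (14 list genes at an unadjusted p under 0.05). FST was 2.91 with and without the block and was not called in either. It was also not called between morula and hatched blastocyst in vivo with all 6 groups in 1 fit. INHBA in vitro was not called with edgeR (-1.41) or with all 6 groups in 1 fit. NODAL from 4-cell embryo to morula in vitro was called with all 6 groups in 1 fit and without the in vitro 4-cell embryo C1, as was SMAD2 in vivo with all 6 groups. The cause was not tested. Plain totals shifted the log2 fold changes gene by gene, by a median of -0.20, -0.11, 0.091 and -0.24 in the 4 steps. The median shift was 0.16 in the difference between steps, and no called member was reversed. NODAL differences rest on few reads, and with edgeR they ran from -5.70 to 3.78.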

Other observations

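High values of several members fell in the same embryo in places. Among the in vitro 4-cell embryos A1 had the highest INHBA (79.7 CPM), NODAL (7.01 CPM), ACVR2A (15.9 CPM) and SMAD3 (8.41 CPM), and E1 the highest ACVR1B (70.0 CPM) and ACVR2B (98.7 CPM). In the in vivo 4-cell embryo A1, INHBA (63.3 CPM) and SMAD3 (5.37 CPM) were the highest of the group. The in vivo 4-cell embryo C1 had the highest ACVR2B (46.8 CPM) with SMAD2 at 1 read and FST, INHBA, ACVR1B and SMAD3 at 0, in a library with 6209 genes above 0 CPM against 8635 to 13520 in the rest of its group. Among the in vivo hatched blastocysts D3 had the highest level of all 3 receptor genes, ACVR1B (2.82 CPM), ACVR2A (17.5 CPM) and ACVR2B (15.5 CPM). The in vitro morula F1 had the highest FST (25.1 CPM), ACVR2B (30.0 CPM) and SMAD3 (6.92 CPM).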
